A study of Homo sapiens with 9 samples.

Results

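DU145 cells cultured for 6 days with the compound H93 were compared with DU145 cells cultured with its solvent DMSO. DU145 is an established human prostate carcinoma line that grows without androgen, and all libraries came from wild type cells. H93 was given at 20 µM dissolved in DMSO, the controls received DMSO only, and the medium was renewed every day in all groups. A further group received 500 nM SAHA, the histone deacetylase inhibitor vorinostat, in DMSO for the same time. The doses are given in the labels with the signs for micrometre and nanometre and are read as molar. Each group held 3 libraries. Whether these came from separate cultures is not given, and the tests then cover library spread alone. The genes described had an FPKM, a fragment count scaled for transcript length and library size, of 1 or more in 3 or more of the 9 libraries. These were 11525 of the 16772 genes in the table.

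The series title presents H93 as directed at UHRF1. UHRF1 is a nuclear protein that reads hemimethylated DNA behind the replication fork together with histone H3 methylated at lysine 9. It ubiquitinates histone H3 and so brings in DNMT1, the enzyme that copies methylation to the new strand. In carcinoma cells UHRF1 is known for keeping promoters of growth control genes methylated. RNA levels, not methylation or protein, were measured here.

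Across the table the libraries held between 14910 and 15295 genes above 0, and the read steps visible in the lowest values put their depths between 0.875 and 1.0 of the deepest. The absolute depth is unknown. Of 14 markers set for the DU145 label 11 had values. The simple epithelial keratin KRT8 lay at 684, 664 and 681 in DMSO and 722, 733 and 737 in H93. Markers of other cell types were low: all 5 lymphoid, 6 of 8 myeloid, 8 of 9 endothelial and 7 of 10 stromal markers with values stayed under 1 in every library. The summed myeloid markers, mostly CD68, ran from 22.7 to 23.5 in DMSO and from 28.6 to 30.3 in H93. The endothelial sum ran from 1.44 to 1.64 in DMSO and from 2.25 to 2.65 in H93, and the stromal sum from 3.29 to 4.51 and from 4.63 to 5.74. The lymphoid sum ran from 0.180 to 1.02 in DMSO and from 0.278 to 0.563 in H93, and no marker was at 0 in all 9 libraries. The leukocyte marker PTPRC was at 0 in DMSO and at most at 0.0179 in H93, and the endothelial marker PECAM1 at most at 0.0228 in H93. The part of the other markers in the results was not tested.

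In what follows rose and fell mean an adjusted p under 0.05 in limma with Benjamini-Hochberg adjustment over the 11525 genes, and differences are H93 minus DMSO on the scale of log2(FPKM + 1). At this threshold 69.8% of the genes passed, 34.9% rising and 35.0% falling, and a list with shares like these is at the background. A 2-fold call also needed a difference of at least 1 in size and was made for 2.28% of the genes, 1.47% rising and 0.816% falling. The 3 H93 libraries lay wholly above or wholly below the 3 DMSO libraries in 73.2% of the genes. Most genes named below were taken for the size of their difference. That their groups are apart is therefore a description and no result about their list. Most changes were small. Of the genes that passed, 56.5% differed by less than 1.25-fold in FPKM + 1, 28.3% by 1.25 to 1.5-fold and 12% by 1.5 to 2-fold. Another 247 genes (3.1%) differed by 2 to 4-fold, and 16 genes (0.2%) by more. The median size among genes that passed was 0.289, the smallest was 0.052, and the median standard error over all kept genes was 0.0458.

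The gene starts of the largest changes are shown first. Methylation was not measured, so their CpG content is given as a description. Sequences are from RefSeq on GRCh38.p14 and cover 300 bases around the annotated start, most of them before it. Capitals mark matches to TGANTCA, the core recognised by AP-1 factors, and to TATAAA, the TATA box, searched on both strands. Shown are the 4 largest rises and then the 4 largest falls with an entry in the sequence table, in order of their difference.
SERPINB2 (chr18:63887455-63887754, plus strand): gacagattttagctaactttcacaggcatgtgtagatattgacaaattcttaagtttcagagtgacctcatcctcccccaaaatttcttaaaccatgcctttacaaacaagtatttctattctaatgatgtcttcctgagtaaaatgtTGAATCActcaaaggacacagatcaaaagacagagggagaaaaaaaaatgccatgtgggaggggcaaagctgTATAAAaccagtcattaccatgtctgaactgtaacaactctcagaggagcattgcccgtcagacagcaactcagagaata
ESM1 (chr5:54985544-54985843, minus strand): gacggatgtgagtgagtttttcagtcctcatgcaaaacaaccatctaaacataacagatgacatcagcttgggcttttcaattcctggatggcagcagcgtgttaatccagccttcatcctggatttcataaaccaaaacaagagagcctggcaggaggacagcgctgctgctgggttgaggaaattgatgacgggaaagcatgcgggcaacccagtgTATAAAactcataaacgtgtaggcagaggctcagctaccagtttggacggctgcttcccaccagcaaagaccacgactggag
IL24 (chr1:206897193-206897492, plus strand): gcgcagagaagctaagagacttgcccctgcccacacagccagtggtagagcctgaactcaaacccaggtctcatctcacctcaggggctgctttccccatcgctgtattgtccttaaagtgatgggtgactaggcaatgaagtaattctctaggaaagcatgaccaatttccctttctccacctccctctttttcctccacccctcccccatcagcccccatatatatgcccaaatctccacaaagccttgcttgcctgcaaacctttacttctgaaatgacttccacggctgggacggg
KRTAP2-3 (chr17:41060065-41060364, minus strand): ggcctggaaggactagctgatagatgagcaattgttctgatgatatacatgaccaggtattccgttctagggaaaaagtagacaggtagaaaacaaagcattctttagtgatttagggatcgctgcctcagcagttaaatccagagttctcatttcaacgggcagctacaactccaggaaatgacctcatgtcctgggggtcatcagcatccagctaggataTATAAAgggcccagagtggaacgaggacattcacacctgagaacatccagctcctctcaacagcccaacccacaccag
LCN2 (chr9:128149203-128149502, plus strand): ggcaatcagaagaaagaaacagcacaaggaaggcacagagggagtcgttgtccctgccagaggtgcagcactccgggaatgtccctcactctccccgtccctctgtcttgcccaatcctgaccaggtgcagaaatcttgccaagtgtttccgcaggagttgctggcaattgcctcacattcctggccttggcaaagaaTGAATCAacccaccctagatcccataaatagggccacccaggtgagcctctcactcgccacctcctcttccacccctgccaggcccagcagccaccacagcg
NAPSA (chr19:50369253-50369552, minus strand): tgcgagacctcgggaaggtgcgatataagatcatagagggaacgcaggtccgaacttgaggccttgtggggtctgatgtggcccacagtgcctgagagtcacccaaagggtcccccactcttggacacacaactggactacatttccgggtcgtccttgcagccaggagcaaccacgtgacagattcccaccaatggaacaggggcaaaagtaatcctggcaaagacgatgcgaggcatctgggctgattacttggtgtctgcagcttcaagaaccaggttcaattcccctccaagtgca
DHRS3 (chr1:12618161-12618460, minus strand): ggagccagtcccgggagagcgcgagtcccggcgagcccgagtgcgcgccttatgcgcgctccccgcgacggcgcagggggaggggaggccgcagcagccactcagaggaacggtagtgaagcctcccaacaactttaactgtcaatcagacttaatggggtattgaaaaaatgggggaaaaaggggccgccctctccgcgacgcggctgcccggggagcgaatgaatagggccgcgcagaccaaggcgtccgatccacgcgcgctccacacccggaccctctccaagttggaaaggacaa
APOC1 (chr19:44914422-44914721, plus strand): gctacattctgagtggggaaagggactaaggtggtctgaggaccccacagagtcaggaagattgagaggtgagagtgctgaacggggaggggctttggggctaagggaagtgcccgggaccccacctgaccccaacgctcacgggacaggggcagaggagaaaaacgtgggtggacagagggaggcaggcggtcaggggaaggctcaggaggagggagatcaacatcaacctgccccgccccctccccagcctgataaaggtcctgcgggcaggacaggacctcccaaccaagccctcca
SERPINB2 encodes an inhibitor of plasminogen activators, and its window held TGAATCA 102 bases before the start and TATAAA 30 bases before it. TATAAA stood 32 bases before the start of ESM1, an endothelial and tumour proteoglycan, and 28 before that of KRTAP2-3, a keratin-associated protein. The window of IL24 held neither motif. Of the genes that fell, LCN2 held TGAATCA 52 bases before the start, and NAPSA, an aspartic protease, DHRS3, a retinal reductase, and APOC1, an apolipoprotein, held neither motif. SERPINB2 was at 3.6, 3.75 and 3.72 in DMSO and 129.8, 126 and 123 in H93. DHRS3 was at 6.53, 7.37 and 6.56 in DMSO and 1.15, 1.29 and 1.44 in H93, and NAPSA at 3.94, 4.27 and 3.91 in DMSO and 0.363, 0.595 and 0.471 in H93. The groups were apart in these 3, which their ranking required, with the differences 4.76, -1.77 and -1.77. The windows of SERPINB2, ESM1, IL24 and KRTAP2-3 held 1, 8, 4 and 4 CpGs, and those of LCN2, NAPSA, DHRS3 and APOC1 held 6, 10, 31 and 8. Their observed to expected CpG ratios were 0.09, 0.44, 0.21 and 0.24 for the rises and 0.25, 0.45, 0.99 and 0.28 for the falls. Among the 25 largest rises and the 25 largest falls, 19 and 16 had an entry. Of the 19 windows of rises 4 held TGANTCA, 7 held TATAAA and 9 neither, and their CpG counts ran from 0 to 29 (median 4). Of the 16 windows of falls 1 held TGANTCA, 1 held TATAAA and 14 neither, with CpG counts from 4 to 45 (median 25). The table used held no entry for MMP1, SUSD2, SAA1 or HLA-DRA. The windows of NAPSA and DHRS3 lie outside the spans of these genes in GENCODE release 29, used for positions below. On the minus strand those spans begin at 50365830 and 12617731, so the starts differ between the annotations.

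Promoter sequence was available for 9391 of the 11525 genes (81.5%). The median CpG ratio was 0.620 over the 131 promoters of genes with a 2-fold rise, 0.786 over the 62 of genes with a 2-fold fall and 0.851 over all 9391. Of 5 equal groups ordered by this ratio, the lowest held 75 of the 2-fold rises and 23 of the 2-fold falls, and the highest held 6 and 9. TGANTCA stood in 11.5% of the windows of 2-fold rises, 3.2% of those of 2-fold falls, 4.2% of those of all kept genes and 7.8% of all 27305 windows in the table. TATAAA stood in 18.3%, 8.1%, 5.2% and 12% of the same sets, GGAATG in 19.8%, 4.8%, 10.5% and 14%, and CCAAT in 42.0%, 24.2%, 37.0% and 35.7%. The cyclic AMP element TGACGTCA stood in 3.1%, 0%, 3.4% and 2.0%. No motif of these 5 contains another. The sets were chosen by their change, so these shares are a description, and a match is not evidence of binding.

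**Figure D1:**
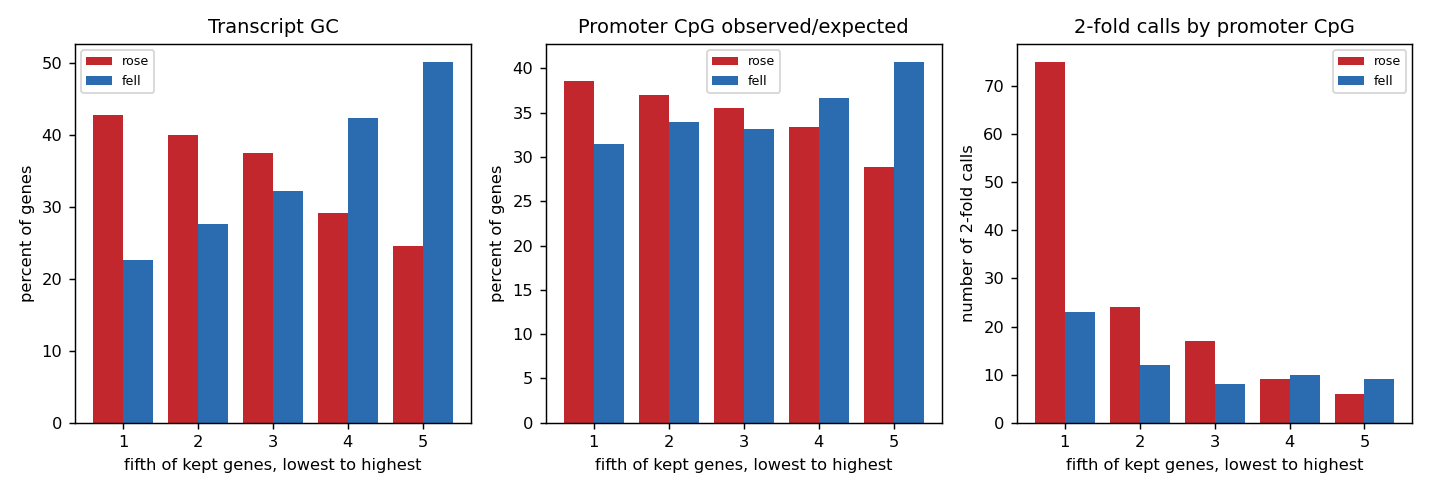
Share of kept genes that rose (red) or fell (blue) in H93 by 5 equal groups of transcript GC content (left) and of the promoter CpG ratio (middle), and the number of 2-fold calls by promoter CpG ratio (right). The share that fell goes from 22.7% in the lowest GC group to 50.2% in the highest, and 75 of the 2-fold rises lie in the lowest CpG group.

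Genes at the edge of the filter were ZMYND10, ST20-MTHFS and SPATA7 just inside it, where the FPKM of rank 3 among the libraries was 1.0007, 1.0018 and 1.0025. ZNF425, MFSD2B and FOXD2 lay just outside, at 0.9993, 0.9993 and 0.9988. Genes switched between near 0 and 1 or more were rare. NTS, which encodes the gut and brain peptide neurotensin, stood at 0.0419, 0 and 0.0419 in DMSO and 1.52, 1.83 and 1.74 in H93. KRT4, a keratin of stratified mucosa, stood at 1.31, 1.21 and 1.21 in DMSO and 0, 0.0265 and 0.0259 in H93. These were the 2 genes under 0.1 in all 3 libraries of one group and at least 1 in all 3 of the other, so their groups could not overlap. At a looser limit, 95 genes were at 0 in all DMSO libraries and above 0 in all H93 libraries, against 19 the other way. The DMSO libraries held 14910 to 14950 genes above 0 and the H93 libraries 15213 to 15295, at relative depths of 0.898 to 1.0 and 0.913 to 0.936.

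UHRF1 itself lay at 51.9, 50.5 and 52.4 in DMSO and 35.5, 34.3 and 33.0 in H93. Its transcript was lower in each H93 library than in any DMSO library (difference -0.58, SE 0.0323). DNMT1 lay at 94.4, 95.8 and 97.8 in DMSO and 81.0, 80.0 and 81.9 in H93, a smaller fall without overlap (difference -0.24). CDKN1A, the cyclin-dependent kinase inhibitor p21, lay at 20.2, 19.8 and 22.3 in DMSO and 80.0, 80.4 and 81.4 in H93. The H93 values of CDKN1A were 3.88-fold those of DMSO in the mean. These values describe RNA only and do not test whether H93 binds UHRF1.

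Among the 2-fold rises ranked 11th to 25th, several encode proteins of the immune system. CD274, which encodes the checkpoint ligand PD-L1, was at 5.45, 5.72 and 5.22 in DMSO and 20.7, 20.7 and 20.5 in H93. All H93 libraries were above 20 and all DMSO libraries under 6 (difference 1.74, SE 0.0562, limma adjusted p = 1.02e-10). CCL20, the chemokine that draws CCR6-bearing lymphocytes, was at 4.85, 4.08 and 5.17 in DMSO and 17.8, 18.0 and 17.0 in H93. SLAMF7, a receptor of the SLAM family on lymphocytes, was at 1.23, 1.28 and 1.21 in DMSO and 8.16, 7.96 and 8.70 in H93. SKAP1, an adaptor of T cell adhesion, was at 2.11, 2.09 and 2.26 in DMSO and 9.16, 9.69 and 8.47 in H93. None of these genes had overlapping groups, because the ranking took only 2-fold calls without overlap. BEX5 rose from 0.160, 0.118 and 0.266 to 4.33, 5.71 and 5.00, the next largest difference after the first 10 (2.34). NELL2, a secreted glycoprotein of neurons, rose 5.95-fold and the G protein regulator GPSM3 rose 5.73-fold in mean FPKM. CALB2, the calcium buffer calretinin, rose 4.99-fold, and EMP1, an epithelial membrane protein, rose 4.50-fold.

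Oxidising and reducing enzymes also stood in this range. AOX1, aldehyde oxidase, was at 0.733, 0.499 and 0.694 in DMSO and 4.45, 4.60 and 4.22 in H93. AKR1C3, which reduces steroids and prostaglandins and is known for making androgens in prostate tissue, was at 1.43, 1.77 and 1.89 in DMSO and 8.42, 11 and 8.91 in H93. The H93 libraries of AKR1C3 spread over 8.42 to 11. DDIT4L, a repressor of mTOR signalling, was at 1.27, 1.24 and 0.998 in DMSO and 6.44, 6.22 and 5.72 in H93, opposite to its relative DDIT4 described below. CD163L1, a scavenger receptor gene, rose from 0.322 ± 0.0354 to 3.42 ± 0.0614 and TMEM59L from 1.70 ± 0.247 to 8.20 ± 0.213 (mean ± SD, n = 3).

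Falls ranked 11th to 25th included genes of adhesion, lipid signalling and membrane protein turnover. CDH1, the epithelial cadherin of adherens junctions, was at 13.3, 13.3 and 13.4 in DMSO and 4.04, 4.70 and 4.27 in H93. Each DMSO value of CDH1 was above 13 and each H93 value under 5 (difference -1.43, SE 0.0487, limma adjusted p = 1.6e-10). PTGES, which makes prostaglandin E2, was at 43.4, 43.6 and 41.1 in DMSO and 15.7, 14.9 and 15.6 in H93. HAS3, a hyaluronan synthase, was at 13.1, 13 and 13 in DMSO and 4.59, 4.49 and 4.21 in H93. IL27RA, a cytokine receptor chain, was at 26.7, 27.4 and 26.4 in DMSO and 6.42, 7.91 and 9.03 in H93. ARRDC3, an alpha-arrestin that directs membrane proteins to degradation, was at 15.9, 16.7 and 16.1 in DMSO and 4.68, 4 and 4.37 in H93. In all 5 the groups were apart, because the ranking took only 2-fold calls without overlap. CABLES1, a partner of cyclin-dependent kinases, fell 3.16-fold, and the vesicle protein SYT12 fell 3.19-fold in mean FPKM. NME4, the mitochondrial nucleoside diphosphate kinase, fell 2.77-fold, the peptidase DPP7 2.67-fold, the aldehyde dehydrogenase ALDH3B1 3.52-fold and FAM20C, a kinase of secreted proteins, 3.87-fold. KCTD15 fell from 8.04 ± 0.201 to 2.11 ± 0.0808 and FNDC10 from 5.09 ± 0.423 to 1.25 ± 0.0382 (mean ± SD, n = 3).

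**Figure D2:**
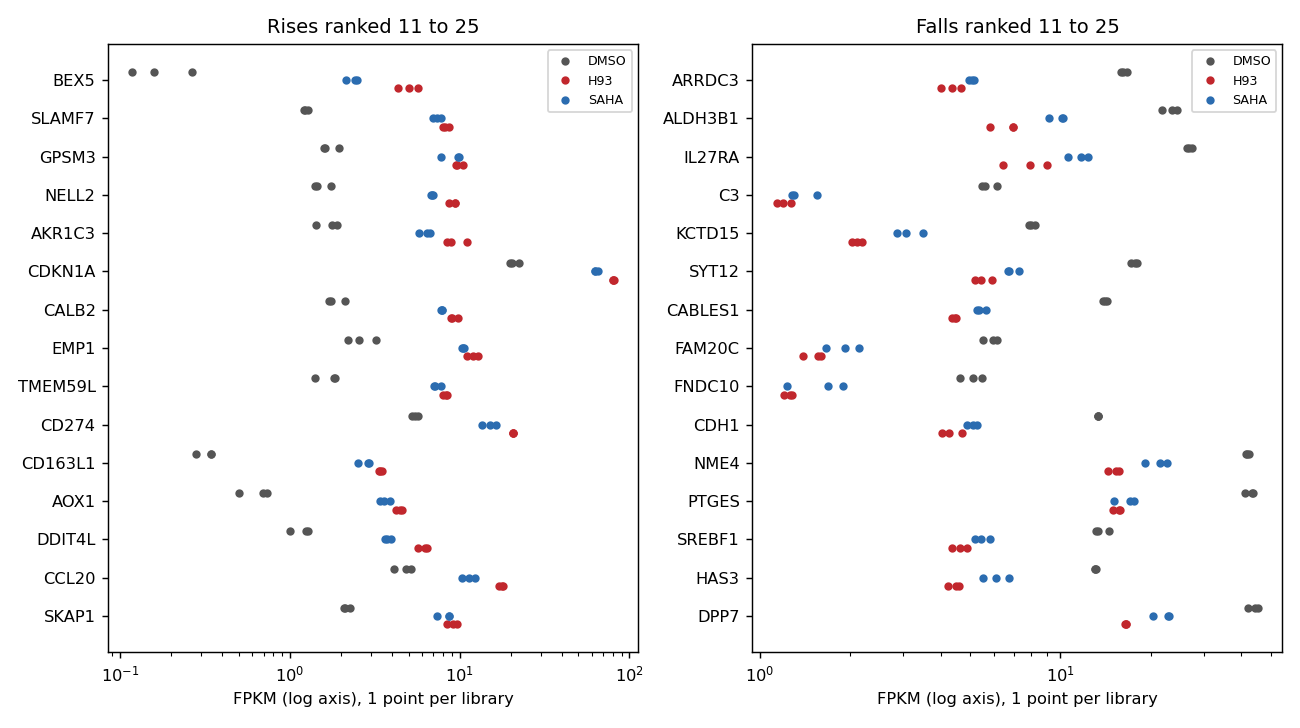
FPKM of the rises (left) and falls (right) ranked 11th to 25th by difference, on a log axis, with 1 point per library for DMSO (grey), SAHA (blue) and H93 (red). H93 and DMSO do not overlap for any of the 30 genes, since the ranking required it, and for all 30 the SAHA libraries lie on the H93 side of DMSO.

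The 15 largest gains and 15 largest losses of mean FPKM included changes of less than 2-fold in abundant transcripts, beside larger ones such as ANKRD1, KRT19 and SERPINB2. LGALS1, the carbohydrate-binding protein galectin 1, was at 785, 763 and 779 in DMSO and 1396, 1392 and 1403 in H93. MT2A, a metallothionein that binds zinc and copper, was at 1365, 1200 and 1244 in DMSO and 1846, 2324 and 1863 in H93. VIM, the intermediate filament protein vimentin, was at 529, 540.4 and 540.4 in DMSO and 803, 796 and 791 in H93, and HMGA1, an architectural chromatin protein, at 590.0, 589 and 594 in DMSO and 911, 919.8 and 937 in H93. These 4 rose with no overlap between groups. B2M, the light chain of HLA class I, was at 325, 324 and 314 in DMSO and 550.3, 548 and 542 in H93. TGM2, a protein crosslinking enzyme, rose from 212 ± 1.52 to 367 ± 4.52, the myosin light chain MYL12B from 393 ± 8.35 to 630.4 ± 6.01 and CCN1, a matricellular YAP target, from 286 ± 1.94 to 479 ± 5.56 (mean ± SD, n = 3).

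On the falling side GAPDH, a glycolytic enzyme often used as a reference gene, was at 2511, 2521 and 2533 in DMSO and 1804, 1863 and 1895 in H93. The ferritin light chain FTL was at 1457, 1422 and 1419 in DMSO and 980.4, 1006 and 1030 in H93 and the heavy chain FTH1 at 1547, 1567 and 1600 in DMSO and 1198, 1197 and 1193 in H93, both iron stores of the cell. ENO1, another glycolytic enzyme, was at 890.2, 864 and 883 in DMSO and 685, 677 and 714 in H93. None of these 4 overlapped. The cytokine MIF fell from 612 ± 13.6 to 444 ± 25.9, profilin PFN1 from 939.6 ± 21.2 to 778 ± 12.6 and the ribosomal protein RPL7A from 1454 ± 28.7 to 1226 ± 5.74 (mean ± SD, n = 3). ACTB, beta actin, stood at 2696, 2727 and 2772 in DMSO and 2557, 2576 and 2597 in H93 with a difference of -0.08 (limma adjusted p = 0.0146). The ACTB call was lost without DMSO replicate 3 (limma adjusted p = 0.0636), with no filter on low values (0.0705), after quantile normalization (difference 0, adjusted p 1.0) and after centring on transcript GC, explained below (0.983). RPS2 was at 2313, 2203 and 2202 in DMSO and 1998, 1984 and 2008 in H93, and its call was also lost after quantile normalization (limma adjusted p = 0.339) and after GC centring (0.469). The gamma actin ACTG1 was at 2034, 2072 and 2078 in DMSO and 2296, 2309 and 2305 in H93, so the 2 cytoplasmic actins had differences of -0.08 and 0.16.

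Cell adhesion genes moved in both directions by named group. Of 13 integrin subunits, receptors that tie cells to matrix, 9 rose and 3 fell, with a median difference of 0.314 against 0.002 over all kept genes. ITGA2, the collagen receptor chain, was at 11.2, 11.6 and 11.9 in DMSO and 31.7, 31.5 and 30.9 in H93. ITGA1, another collagen receptor chain, was at 1.63, 1.98 and 1.67 in DMSO and 5.51, 5.09 and 5.46 in H93, and the laminin receptor chain ITGA7 at 1.53, 1.74 and 1.65 in DMSO and 5.26, 4.19 and 5.01 in H93. ITGB2, the leukocyte beta chain, went the other way at 8.47, 8.89 and 8.72 in DMSO and 3.29, 3.63 and 3.86 in H93. The H93 and DMSO libraries were apart in all 4, as in 73.2% of all kept genes, and the 4 were taken for their large differences.

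Of 28 basement membrane and matrix genes 18 rose and 9 fell (median 0.170). LAMB3, a laminin chain that anchors epithelial cells to the basement membrane, was at 146, 148 and 145 in DMSO and 313, 312 and 318 in H93. Each H93 library had more than 2 times the FPKM of any DMSO library. Fibronectin FN1 rose from 6.40 ± 0.496 to 14.8 ± 0.209, the hemidesmosome collagen COL17A1 from 1.60 ± 0.133 to 4.36 ± 0.165 and nidogen NID2 from 4.28 ± 0.168 to 9.31 ± 0.310 (mean ± SD, n = 3). Of 15 proteases 6 rose and 7 fell, with MMP24 at 9.10, 8.42 and 8.38 in DMSO and 3.21, 2.71 and 2.95 in H93 and the epithelial protease ST14 at 9.37, 9.57 and 8.90 in DMSO and 5.23, 4.52 and 4.79 in H93. Of 20 protease inhibitors and plasminogen receptor genes 12 rose and 6 fell. SERPINB5, known as maspin, was at 0.552, 0.921 and 0.794 in DMSO and 3.32, 3.32 and 3.83 in H93, the urokinase receptor PLAUR at 43.5, 41.5 and 42.5 in DMSO and 68.9, 71.2 and 72.1 in H93, and the coagulation inhibitor TFPI at 16.6, 15.8 and 17.1 in DMSO and 10.7, 10.0 and 8.95 in H93.

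Of 11 keratin, keratin-associated and vimentin genes 7 rose and 2 fell. KRT19 was at 169.9, 168 and 171 in DMSO and 418, 424 and 419 in H93, and KRT15, a basal keratin, at 2.91, 2.75 and 2.84 in DMSO and 7.69, 7.75 and 8.62 in H93. Of 11 basal and stem-like epithelial genes 8 rose and 1 fell, among them the nerve growth factor receptor NGFR (from 0.873 ± 0.0974 to 3.72 ± 0.406), the hyaluronan receptor CD44 (from 21.6 ± 0.677 to 38.4 ± 0.95) and SOX9 (from 8.80 ± 0.131 to 13.8 ± 0.529). Of 25 tight junction and desmosome genes 9 rose and 11 fell, near the background in both directions. CLDN4 and CLDN3, sealing claudins, were at 3.85, 3.13 and 4.01 in DMSO and 0.95, 0.972 and 0.752 in H93 for CLDN4 and 22.8, 24.8 and 21.8 in DMSO and 11.3, 10.1 and 12.5 in H93 for CLDN3. The desmosome genes split: PKP3 fell from 22.3 ± 0.789 to 9.38 ± 0.439, while PERP rose from 27.3 ± 0.163 to 58.9 ± 0.612 and PKP2 from 3.14 ± 0.269 to 5.66 ± 0.194 (mean ± SD, n = 3). EPCAM, an epithelial surface protein, was at 66.1, 67.7 and 67.6 in DMSO and 30.1, 31.6 and 29.6 in H93. The P-cadherin CDH3 was at 20.5, 20.3 and 21.5 in DMSO and 10.5, 10.6 and 10.5 in H93, and the epithelial factor ELF3 at 12.2, 12.3 and 13.2 in DMSO and 6.28, 6.47 and 5.71 in H93. These 3 fell without overlap, whereas KRT8 rose slightly. Of 18 epithelial and mesenchymal identity genes in all, 8 rose and 8 fell.

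Of 10 prostate luminal and androgen response genes 3 rose and 3 fell, including the metalloreductase STEAP1 (from 22 ± 1.89 to 37.9 ± 1.85) and the retinaldehyde dehydrogenase ALDH1A3 (from 19.6 ± 1.12 to 11.4 ± 0.691). The retinoid list of 12 genes had 5 rises and 5 falls. In it the receptor RARG fell from 21.8 ± 0.580 to 11.5 ± 0.537, RXRA fell from 10.6 ± 0.467 to 7.05 ± 0.178, and the binding protein CRABP2 rose from 37.4 ± 3.28 to 61.9 ± 1.87 (mean ± SD, n = 3).

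Antigen presentation genes of HLA class II, which display peptides to helper T cells, had the highest median of the lists with 10 or more kept genes. Of 15 kept members 8 rose and 3 fell (median 0.703), and 5 of the rises were 2-fold calls. Only 13 HLA genes of any class were kept, so these 15 members include genes other than HLA genes. HLA-DRA, the alpha chain of DR, was at 0.210, 0.140 and 0.210 in DMSO and 7.20, 6.85 and 7.27 in H93. HLA-DQB1 was at 2.71, 1.84 and 2.14 in DMSO and 9.07, 9.48 and 9.15 in H93, and HLA-DRB1 at 5.34, 5.14 and 5.14 in DMSO and 13.6, 14.7 and 15.7 in H93. HLA-DMA and HLA-DMB, which load peptides in endosomes, were at 6.12, 6.87 and 6.75 in DMSO and 16.1, 17.4 and 14.8 in H93 and at 5.19, 4.37 and 4.28 in DMSO and 10.5, 11.6 and 11.2 in H93. In all 5 the groups were apart, as in 73.2% of all kept genes, and the 5 were taken for their large differences. Class II beta chains resemble each other closely and vary between people, so their values depend on how the authors assigned fragments. CIITA, the coactivator that drives the class II genes, was named after its values were seen: it did not pass the filter, at 0.0089 to 0.0266 in the 9 libraries. CD74, the invariant chain, was named likewise, at 1.20, 0.881 and 1.16 in DMSO and 1.30, 1.45 and 1.12 in H93, and did not pass the test (difference 0.14, limma adjusted p = 0.14). After subtracting in each library the median deviation of genes of like transcript GC content, called GC centring here and chosen after the data were seen, 9 rose and 3 fell.

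Of 27 interleukin, chemokine and receptor genes 15 rose and 9 fell (median 0.280), with 6 2-fold rises and no 2-fold falls. IL24, a cytokine of the IL-10 family, was at 1.49, 1.17 and 1.44 in DMSO and 35.4, 36.9 and 35.6 in H93. CXCL8, a neutrophil attractant, was at 47.3, 48.0 and 47.8 in DMSO and 145, 142 and 137 in H93. CXCL1, of the same family, was at 7.38, 7.52 and 8.76 in DMSO and 16.8, 19.7 and 16.2 in H93. IL18, an inflammasome cytokine, was at 47.1, 47.1 and 47.0 in DMSO and 97.2, 99.1 and 100.2 in H93. All 4, taken for their large differences, rose without overlap, against 73.2% of all kept genes without overlap in either direction. IL6 was at 2.26, 1.67 and 1.47 in DMSO and 0.688, 0.603 and 0.719 in H93, a fall. Of 17 acute phase and complement genes 4 rose and 11 fell (median -0.355). The serum amyloid SAA1 was at 9.22, 10.1 and 11.9 in DMSO and 0.767, 1.47 and 1.15 in H93, the iron-withholding protein LCN2 at 7.02, 8.80 and 9.19 in DMSO and 1.15, 1.32 and 1.08 in H93, and complement C3 at 5.63, 6.17 and 5.49 in DMSO and 1.14, 1.19 and 1.27 in H93. CEBPD, a transcription factor of the acute phase response, was at 48.7, 50 and 49.5 in DMSO and 11.6, 11.7 and 10.7 in H93. CD59, which blocks the complement pore, rose instead, at 22.4, 23.0 and 23.3 in DMSO and 47.2, 48.0 and 46.9 in H93. SAA1 has a close copy, so its fragments may be shared. After GC centring 5 of the 17 rose and 9 fell (median -0.178). Of 37 proteasome genes 8 rose and 14 fell. PSMB10 and PSMB8, both catalytic subunits of the immunoproteasome, were at 11.8, 13.7 and 11.6 in DMSO and 5.06, 5.99 and 4.20 in H93 for PSMB10 and 3.94, 3.41 and 4.19 in DMSO and 5.50, 6.59 and 4.83 in H93 for PSMB8, a fall and a rise.

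In the lists of acidification and membrane traffic rises outnumbered falls. The vacuolar proton pump acidifies endosomes and lysosomes. It has a peripheral V1 part, where ATP is split, and a membrane V0 part, through which protons pass. Of 18 kept pump genes 14 rose and 2 fell (median 0.324). ATP6V1A, the catalytic V1 subunit, was at 12.8, 12.5 and 12.8 in DMSO and 25.2, 25 and 24.8 in H93. ATP6V1D, a V1 stalk subunit, was at 34.6, 34.1 and 34.5 in DMSO and 61.5, 63.7 and 58.3 in H93. Of the membrane part, ATP6V0B was at 72.2, 75.0 and 77.0 in DMSO and 102, 104 and 104 in H93 and ATP6V0E1 at 53.9, 55.6 and 53.5 in DMSO and 77.2, 80.1 and 76.7 in H93. These 4 rose by 0.92, 0.81, 0.46 and 0.51 with standard errors up to 0.0344. ATP6V1E2, an alternative subunit best known from testis, fell, at 6.45, 6.22 and 6.09 in DMSO and 3.49, 3.23 and 3.95 in H93. With values centred on transcript GC 16 rose and 2 fell.

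Of 38 SNARE and vesicle fusion genes, which bring membranes together, 23 rose, 2 fell and 13 did not pass (median 0.158). STX1A, a plasma membrane syntaxin, was at 10.1, 10.0 and 9.57 in DMSO and 18.5, 19.0 and 18.3 in H93, and SEC22B, of the traffic between the endoplasmic reticulum and the Golgi, at 7.25, 7.23 and 6.71 in DMSO and 13.2, 13.8 and 12.5 in H93. Of 39 Rab GTPases, which mark and steer vesicles, 25 rose and 9 fell (median 0.219). RAB3B was at 9.86, 9.77 and 10.1 in DMSO and 16.9, 16.4 and 16.8 in H93, RAB8B at 4.63, 4.82 and 4.74 in DMSO and 8.46, 7.94 and 8.12 in H93 and RAB17, an epithelial Rab, at 7.56, 7.56 and 7.47 in DMSO and 4.97, 5.15 and 4.65 in H93, the last of them a fall. Of 30 ESCRT genes, which bud vesicles into endosomes, 18 rose and 6 fell (median 0.135), among them SNF8 (from 40.8 ± 1.54 to 61.9 ± 1.71). After the GC centring the counts were 21 and 1 for SNARE, 26 and 8 for Rab and 18 and 5 for ESCRT genes.

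Of 22 tetraspanins, membrane organisers found on vesicles, 12 rose and 2 fell (median 0.136), with TSPAN13 at 19.4, 21.9 and 19.8 in DMSO and 51.3, 55.2 and 52.4 in H93 and CD82 at 5.99, 6.55 and 5.59 in DMSO and 13.3, 12.7 and 12.9 in H93. Of 24 sphingolipid and lysosomal lipid genes 14 rose and 4 fell, including the lysosomal cholesterol carrier NPC2 (from 68.8 ± 2.01 to 149 ± 3.53), GM2A (from 15.6 ± 0.192 to 24.0 ± 0.473) and the acid lipase LIPA (from 36.0 ± 0.399 to 52.8 ± 1.5). Cytoskeletal genes were mixed. Of 42 actin cytoskeleton genes 22 rose and 12 fell, with LIMA1 at 54.0, 53.2 and 53.4 in DMSO and 108, 106 and 109 in H93 and the Arp2/3 subunit ARPC1B at 152, 154 and 156 in DMSO and 102, 105 and 104 in H93. Of 22 tubulin genes 4 rose and 10 fell. TUBA1A was at 20.1, 20.4 and 19.9 in DMSO and 57.5, 61.7 and 59.2 in H93, whereas its near copy TUBA1B was at 1119, 1104 and 1083 in DMSO and 942, 978 and 976 in H93, and the 2 share long stretches of sequence. Of 32 kinesins 9 rose and 14 fell, with the axonal motors KIF1A (from 1.47 ± 0.123 to 4.53 ± 0.127) and KIF5C (from 4.89 ± 0.0634 to 10.7 ± 0.455) among the rises.

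**Figure D3:**
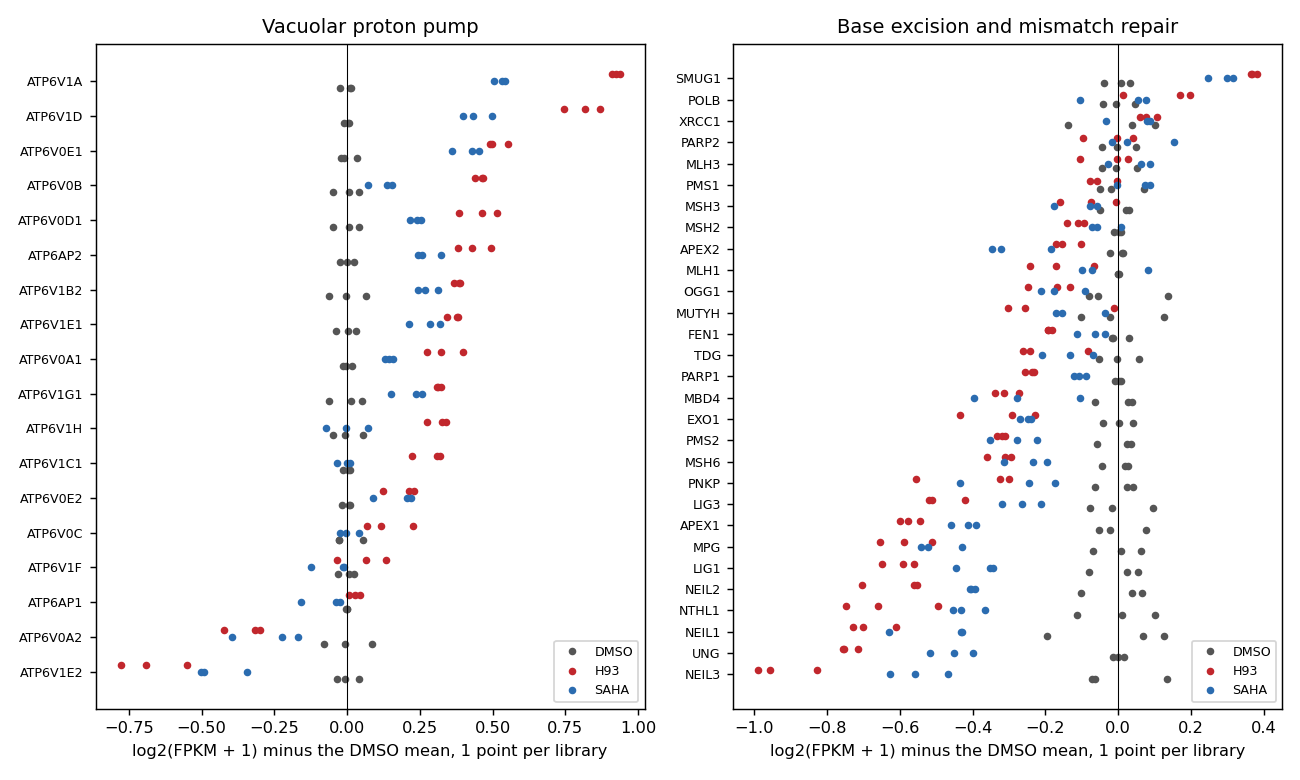
Each library's log2(FPKM + 1) minus the DMSO mean for the 18 vacuolar pump genes (left) and the 29 base excision and mismatch repair genes (right), with DMSO in grey, SAHA in blue and H93 in red. Of the pump genes 14 rose and 2 fell, and of the repair genes 1 rose and 22 fell.

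In the lists of repair, nucleotide synthesis and RNA processing falls outnumbered rises. Base excision repair removes damaged or deaminated bases, and mismatch repair corrects errors of replication. Of 29 genes of both pathways 22 fell, 1 rose and 6 did not pass (median -0.241). UNG, which removes uracil from DNA, was at 53.8, 54.4 and 55.0 in DMSO and 31.8, 32.8 and 31.8 in H93. NEIL3, a glycosylase of dividing cells, was at 6.60, 5.59 and 5.62 in DMSO and 2.49, 2.57 and 2.90 in H93, and NTHL1, which removes oxidised pyrimidines, at 23.5, 22 and 20.1 in DMSO and 13.4, 12.6 and 15.2 in H93. The groups were apart in each, as in 73.2% of all kept genes. The 1 rise was SMUG1, a second uracil glycosylase, named after its value was seen, at 9.67, 10.0 and 10.2 in DMSO and 13.3, 13.2 and 13.1 in H93. Of the 33 kept genes that the table's own annotation puts in base excision repair 24 fell and 2 rose (median -0.195). Centred on GC the 29-gene list had 23 falls and 2 rises.

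Of 31 folate, serine and nucleotide synthesis genes 22 fell and 1 rose (median -0.248). TYMS, which makes thymidylate, was at 189, 191 and 191 in DMSO and 133, 130.3 and 127 in H93. ATIC, of purine synthesis, was at 55.9, 56.7 and 55.7 in DMSO and 38.8, 37.5 and 36.6 in H93, and the mitochondrial folate enzyme MTHFD1L at 3.67, 4.06 and 4.01 in DMSO and 1.72, 1.76 and 1.67 in H93. All 3 were lower in every H93 library than in any DMSO library. The reduced folate carrier SLC19A1, from the table's antifolate resistance term and not in that list, fell from 18.8 ± 0.122 to 10.4 ± 0.347. Of 36 splicing factors 26 fell and 1 rose (median -0.182), with U2AF2 at 87.9, 84.7 and 88.2 in DMSO and 60.9, 61.9 and 61.8 in H93 and HNRNPL at 143, 142 and 139.7 in DMSO and 114, 115 and 117 in H93. U2AF1 was at 10.3, 4.46 and 7.85 in DMSO and 2.70, 3.22 and 6.23 in H93, with overlapping groups and a standard error of 0.314. Its call (limma adjusted p = 0.0464) was lost without DMSO replicate 1 (limma adjusted p = 0.179) or 3 (0.109). Leaving out H93 replicate 1 (0.166) or 2 (0.126) or SAHA replicate 2 (0.0561) also removed it. So did dropping the filter on low values (limma adjusted p = 0.122) and robust empirical Bayes (0.161). After GC centring 23 folate and nucleotide genes fell and 2 rose, and 30 splicing factors fell and 2 rose.

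Of 20 heterochromatin and histone H3 lysine 9 methylation genes 13 fell and 2 rose (median -0.211). CBX5, the heterochromatin protein HP1 alpha that binds this mark, was at 12.8, 13.3 and 13.2 in DMSO and 5.21, 5.51 and 5.64 in H93. The methyltransferases EHMT2 and SETDB1 were at 21.9, 22.8 and 22.6 in DMSO and 13.6, 14.1 and 15.1 in H93 for EHMT2 and 11.8, 12.8 and 11.9 in DMSO and 7.94, 8.48 and 7.82 in H93 for SETDB1. LMNB1, the lamin at the nuclear edge, was at 56.9, 61.1 and 61.5 in DMSO and 34.8, 34.9 and 35.0 in H93. The groups were apart in all 4, as in 73.2% of all kept genes, and the 4 were taken for their large differences. Of 30 polycomb genes 9 rose and 9 fell, and after GC centring 8 and 12. Of 33 acetyltransferases, deacetylases and readers 9 rose and 16 fell. The acetyltransferase KAT2A was at 37.2, 36.0 and 36.5 in DMSO and 18.8, 20.1 and 19.3 in H93 and the deacetylase SIRT2 at 11, 9.15 and 10.3 in DMSO and 16.7, 18.7 and 18.3 in H93. Of 19 replacement histone and linker genes 6 rose and 8 fell, with MACROH2A2, a histone variant of silent chromatin, at 36.0, 35.4 and 36.1 in DMSO and 18.1, 17.2 and 19.2 in H93.

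In the table's own annotation 63 of 120 Cell cycle genes fell and 29 rose (median -0.09), and 23 of 35 DNA replication genes fell and 3 rose (median -0.182). Of 40 E2F, RB and cyclin genes 12 rose and 16 fell, with the S phase activator MYBL2 at 120.3, 116 and 119 in DMSO and 70.0, 72.8 and 75.9 in H93 and CCND1, the G1 cyclin D1, at 116, 117 and 116 in DMSO and 163, 164 and 163 in H93. Of 31 centromere and kinetochore genes 3 rose and 10 fell, and 18 did not pass; after GC centring 2 rose and 14 fell. GADD45A, a growth arrest gene, was at 20.2, 17.9 and 18.5 in DMSO and 56.3, 51.3 and 56.3 in H93, and PMAIP1, the death inducer NOXA, at 13.4, 14 and 14.4 in DMSO and 32.8, 32.1 and 35.6 in H93. Of 18 BCL2 family genes 11 rose and 5 fell. BCL2A1, which protects from cell death, was at 2.98, 3.25 and 2.61 in DMSO and 12.4, 10.5 and 11.1 in H93, whereas BID, which links death receptors to mitochondria, was at 25.5, 24.7 and 25 in DMSO and 12.7, 12.5 and 11 in H93. BCL2L11, the death inducer BIM, was at 2.15, 2.21 and 2.42 in DMSO and 1.03, 1.19 and 1.17 in H93. Of 25 genes of senescence-associated secretion 17 rose and 6 fell (median 0.365). That list shares SERPINB2, MMP1 and several chemokines with the lists above, and IGFBP4 fell in it from 171 ± 2.92 to 77.8 ± 2.23.

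Signalling lists were mixed in direction. Of 23 YAP and TEAD target genes 13 rose and 8 fell (median 0.189). ANKRD1, a cardiac ankyrin repeat protein, was at 78.9, 79.8 and 78.8 in DMSO and 518, 522 and 507 in H93 and CCN2, connective tissue growth factor, at 47.7, 48.4 and 49.4 in DMSO and 121, 124 and 125 in H93. FJX1, of the same list, was at 33.6, 35.9 and 35.9 in DMSO and 19.6, 20.8 and 22.5 in H93, a fall. Of 10 EGF family genes 5 rose and 3 fell. HBEGF, a ligand of EGFR, was at 10.9, 9.06 and 10.4 in DMSO and 29.9, 30.6 and 31.2 in H93, EGFR at 40.1, 41.2 and 40.1 in DMSO and 46.9, 47.4 and 48.3 in H93, and the receptor ERBB2 at 23.2, 23.1 and 23.2 in DMSO and 16.3, 16.1 and 16.2 in H93. Of 15 AP-1 and ATF genes 7 rose and 4 fell, with JUN at 25.8, 25.3 and 26.8 in DMSO and 49.0, 46.2 and 47.7 in H93 and JUND at 40.7, 42.4 and 41.1 in DMSO and 28.9, 29.1 and 30.2 in H93.

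Of 26 TGF-beta and BMP genes 10 rose and 9 fell. TGFBI was at 64.2, 64.2 and 65.8 in DMSO and 35.0, 34.6 and 33.6 in H93 and ID1, a target of BMP signals, at 165, 174 and 173 in DMSO and 119, 121 and 115 in H93, while the receptor TGFBR2 was at 38.5, 39.3 and 38.8 in DMSO and 53.4, 53.3 and 53 in H93. Of 33 Wnt genes 13 rose and 17 fell. WNT7B, a ligand, was at 22.5, 21.5 and 21.2 in DMSO and 10.4, 10.3 and 10.9 in H93, and DKK1, a secreted Wnt inhibitor, at 69.0, 68.4 and 68.6 in DMSO and 118, 119 and 122 in H93. Of 15 Notch genes 4 rose and 8 fell, among them the ligand JAG2 (from 16.9 ± 0.264 to 10.1 ± 0.238) and the target HES1 (from 2.11 ± 0.275 to 0.921 ± 0.177), while the receptor NOTCH2 rose from 9.45 ± 0.321 to 13.8 ± 0.207. Of 16 Krüppel-like factors 10 rose and 3 fell. KLF4 was at 4.23, 4.45 and 4.99 in DMSO and 8.12, 8.23 and 8.5 in H93 and KLF11 at 4.62, 4.57 and 4.29 in DMSO and 2.02, 1.77 and 1.86 in H93.

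Of 11 kept circadian clock genes 4 rose and 6 fell. CRY1, a repressor of the clock, was at 7.75, 8.23 and 7.76 in DMSO and 17.8, 17.4 and 18.4 in H93. NR1D1 and NR1D2, the REV-ERB receptors, were at 3.06, 2.94 and 3.36 in DMSO and 1.12, 1.27 and 1.52 in H93 for NR1D1 and 4.36, 4.46 and 4.33 in DMSO and 1.70, 1.74 and 1.69 in H93 for NR1D2. Each H93 value of CRY1 was above 17 and each DMSO value under 9. Of 11 MYC and MAX network genes 4 rose and 3 fell, with the MYC antagonist MXD1 at 1.04, 0.957 and 0.974 in DMSO and 2.23, 2.88 and 2.60 in H93 and MAX, partner of both, at 20.1, 19.3 and 20.0 in DMSO and 32.5, 30.6 and 32.4 in H93. MXD4 (difference -0.20) and MNT (-0.19) passed the test, but not after GC centring, at differences of -0.06 and -0.09. Of 518 genes that the table's annotation names as transcription factors, 144 (27.8%) rose and 224 (43.2%) fell, with 1 2-fold rise and 4 2-fold falls. Within them the ZBTB family had 2 rises and 8 falls of 13, the homeobox family 4 and 12 of 25, and C2H2 zinc fingers 34 and 31 of 116.

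Metabolic genes fell more often than they rose in several lists. Of 21 glycolysis and lactate genes 6 rose and 10 fell, including GPI (from 65.2 ± 0.160 to 37.3 ± 0.849), PFKL (from 49.8 ± 1.14 to 31.8 ± 1.25) and LDHA (from 436 ± 3.91 to 316 ± 7.04), while hexokinase HK1 rose from 45.4 ± 0.634 to 63.2 ± 1.29 (mean ± SD, n = 3). The median of the list moved from -0.095 to -0.025 with GC centring, at 6 rises and 9 falls. Of 13 alpha-arrestin and glucose sensing genes 1 rose and 10 fell (median -0.260), with 3 rises and 9 falls after GC centring. PFKFB3, which sets the level of a glycolytic activator, was at 24.5, 24.9 and 24.6 in DMSO and 19.0, 18.6 and 18.8 in H93. The 1 rise was the glucose transporter SLC2A3 (from 0.814 ± 0.0550 to 1.39 ± 0.153). Of 24 hypoxia targets 11 rose and 10 fell. DDIT4 was at 69.3, 66.6 and 68.4 in DMSO and 26.9, 25.7 and 26.9 in H93 and VEGFA, the vascular growth factor, at 57.1, 57.6 and 56.8 in DMSO and 33.8, 35.1 and 33.2 in H93, both falls, whereas ANGPTL4 was at 52.2, 52.9 and 52.3 in DMSO and 95.9, 92.6 and 97.5 in H93. Of 29 TCA cycle genes 8 rose and 16 fell. Pyruvate carboxylase PC was at 5.84, 6.01 and 5.54 in DMSO and 2.68, 3.31 and 2.90 in H93, and malate dehydrogenase MDH1 at 153, 159.8 and 158 in DMSO and 211, 216 and 207 in H93.

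Respiratory chain subunits stayed near the background. Of 37 complex I genes 10 rose and 13 fell, and of 36 genes of complexes III, IV and V 16 rose and 12 fell. Of 23 aminoacyl-tRNA synthetase genes 5 rose and 16 fell (median -0.203). WARS1, an interferon-induced member, rose from 40.9 ± 1.33 to 60.8 ± 1.03. Of 19 amino acid transporters 5 rose and 11 fell, with the glutamate carrier SLC1A3 at 8.52, 8.64 and 9.12 in DMSO and 4.18, 4.32 and 3.95 in H93 and the taurine carrier SLC6A6 at 35.7, 35.3 and 34.3 in DMSO and 21.3, 20.8 and 21.9 in H93. Of 12 LXR target and sterol efflux genes 3 rose and 6 fell. There APOE was at 5.78, 5.17 and 5.47 in DMSO and 14.5, 15.6 and 12.8 in H93, and its neighbour APOC1 at 12.8, 11.8 and 11.3 in DMSO and 3.03, 3.31 and 2.29 in H93, in opposite directions. Of 17 drug metabolism genes 7 rose and 7 fell, with the exporter ABCC3, a member of that list, at 12.2, 12.9 and 12.7 in DMSO and 5.41, 5.44 and 5.36 in H93. Of 32 heat shock genes 13 rose and 11 fell, and of 27 endoplasmic reticulum chaperone genes 15 rose and 11 fell. TXNDC5, a disulfide isomerase, was at 209, 210.0 and 203 in DMSO and 126, 124 and 129 in H93, the largest difference of that list (-0.71). Of 18 annexin and S100 genes 6 rose and 8 fell. Of 11 secreted metabolic and neuropeptide genes 6 rose and 3 fell, with stanniocalcin STC1 at 14.5, 14 and 13.8 in DMSO and 45.3, 45.5 and 47.2 in H93, the neuropeptide precursor VGF at 1.20, 1.60 and 1.46 in DMSO and 5.62, 6.47 and 5.42 in H93 and galanin GAL at 107, 108 and 108 in DMSO and 59.0, 63.5 and 62.4 in H93.

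**Figure D4:**
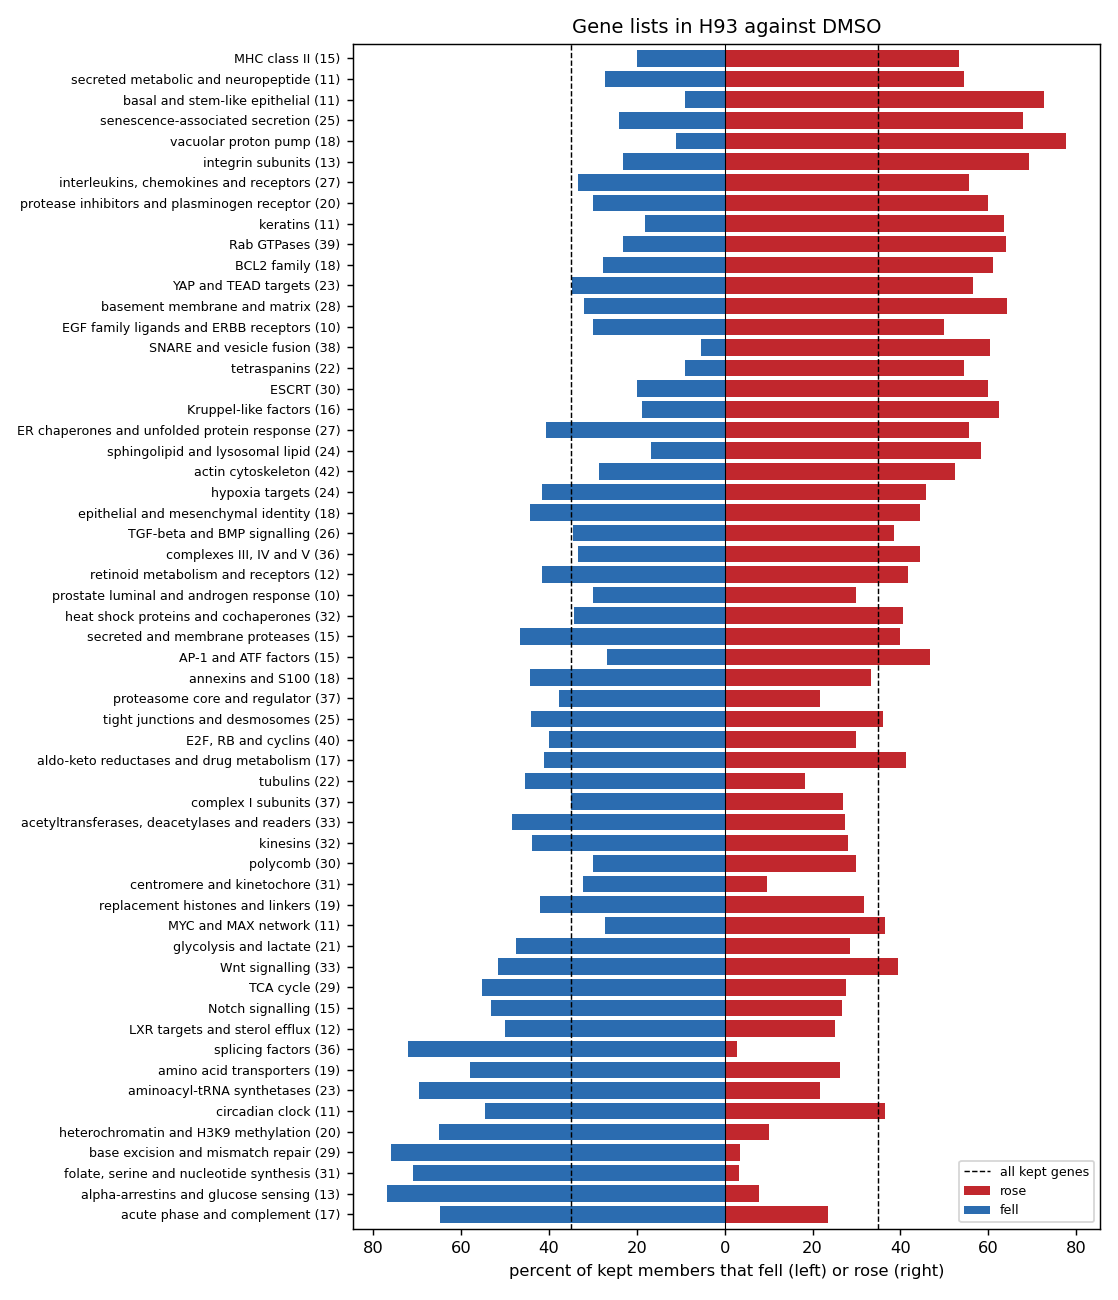
Percent of kept members of the gene lists shown that rose (red, right) or fell (blue, left) in H93 against DMSO, ordered by the list's median difference, with the number of kept members in brackets and dashed lines at 34.9% and 35.0% for all kept genes. Vacuolar pump genes rose in 14 of 18 cases, and folate, serine and nucleotide genes fell in 22 of 31.

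The table's own pathway annotation gave 283 terms with 10 to 150 kept genes, of which 189 had a median above 0 and 94 a median below 0. Among the 8 terms with the highest medians, from 0.373 for Rheumatoid arthritis to 0.829 for Graft-versus-host disease, every one held HLA genes. In Autoimmune thyroid disease 13 of 15 kept genes were HLA genes (86.7%), so several of these terms count the same 13 genes. Rheumatoid arthritis held 8 HLA genes, and its 44 others had 30 rises and 10 falls (median 0.313). Without HLA genes Hematopoietic cell lineage had 16 rises and 7 falls of 27 (median 0.252). The other 6 terms kept few genes without HLA. Staphylococcus aureus infection kept 10, with 4 rises and 4 falls (median -0.044), Intestinal immune network for IgA production 8, with 2 and 3 (-0.139), and Type I diabetes mellitus 6, with 2 and 2 (0.026). Allograft rejection kept 3 (median 0.557), Autoimmune thyroid disease 2 (0.37) and Graft-versus-host disease 2 (-0.338). The lowest medians belonged to Antifolate resistance (-0.287, 15 of 23 fell and 3 rose), Histidine metabolism (-0.277) and Nicotinate and nicotinamide metabolism (-0.269, 14 of 24 fell and 7 rose). CD38, which consumes NAD, was at 3.62, 3.91 and 4.16 in DMSO and 1.06, 1.01 and 1.23 in H93, and NNMT, which methylates nicotinamide, at 44.7, 44.5 and 44.6 in DMSO and 19.8, 18.9 and 19.1 in H93. NNT, which passes hydride between NADH and NADPH in mitochondria, was at 12, 11.8 and 11.5 in DMSO and 5.61, 5.70 and 5.73 in H93. These 3 fell without overlap. In One carbon pool by folate 10 of 17 fell and 0 rose. Pyruvate metabolism had 21 falls and 7 rises of 30, with the fatty acid synthesis enzyme ACACA at 16.4, 16.8 and 16.2 in DMSO and 8.77, 9.01 and 8.69 in H93. The terms were ranked on these data, so their medians are a description.

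Placed on the GRCh38 annotation of GENCODE release 29, 45 of the 262 2-fold calls with a position lay within 200000 bases of another. They formed 21 groups, and in 19 of these all went one way. Of all 2-fold calls 64.3% were rises. How often kept genes in general lie this near was not counted, so these numbers are a description. The span of NPW and MLST8 held 8 kept genes and that of PKN3 and PHYHD1 held 9. HLA-DRA, HLA-DRB1 and HLA-DQB1 rose within chr6:32439842-32668383, where 4 kept genes lie. ITGA1 and ITGA2 rose within chr5:52787896-53094779, KRT15 and KRT19 within chr17:41513743-41528308, and SERPINB7 and SERPINB2 within chr18:63752935-63903890. SLC12A7, TERT and LPCAT1 fell together within chr5:1050376-1523977. TERT, the catalytic subunit of telomerase, was at 3.00, 3.43 and 3.55 in DMSO and 1.02, 0.914 and 0.891 in H93, SLC12A7 at 8.94, 8.92 and 9.34 in DMSO and 3.82, 3.79 and 3.98 in H93 and LPCAT1 at 71.6, 73.4 and 71.4 in DMSO and 28.0, 28.0 and 27.4 in H93; these 3 were named for their position after their values were seen. APOE and APOC1, within chr19:44905754-44919349, went in opposite directions.

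H93 and SAHA libraries were set side by side by a direct contrast in the same fit, whose spread is pooled over all 9 libraries. The compounds were given at different doses (20 µM and 500 nM), so the values show these cultures and not potency. Between them 31.5% of the genes passed, 17.6% higher and 13.9% lower in H93. This split of 2031 higher and 1598 lower depended on the scaling: it turned to 1714 and 1826 with median-ratio rescaling, 1693 and 1791 with quantile normalization and 1794 and 1843 with GC centring, and came to 2352 and 1395 with each library set to a fixed sum. With only these 2 groups fitted it was 1885 and 1462. Genes that also differed from DMSO and stood furthest above SAHA were KRTAP2-3, ESM1 and BEX5. KRTAP2-3 was at 32.8, 30.5 and 30.3 in H93 and 10.9, 11.2 and 11.1 in SAHA, against 1.36, 1.25 and 1.19 in DMSO, and this gene has close copies among which fragments may be shared. ESM1 was at 22.3, 22.9 and 21.9 in H93, 10.9, 11.8 and 11.2 in SAHA and 0.346, 0.358 and 0.198 in DMSO. For ANKRD1 the SAHA values were 293, 303 and 289, lower than the H93 values above (H93 minus SAHA 0.80, SE 0.0228). CCN2 was at 83.5, 79.5 and 83.8 in SAHA, also lower (H93 minus SAHA 0.58). EIF3C was at 16.7, 12.9 and 19.0 in DMSO and 15.9, 32.2 and 33.1 in H93, with a standard error of 0.225. Its SAHA values were 13, 17.9 and 16.8. Its call against DMSO was lost without DMSO replicate 2 (limma adjusted p = 0.0838), H93 replicate 2 (0.0873) or H93 replicate 3 (0.0922). Dropping the filter on low values (limma adjusted p = 0.0677) and robust empirical Bayes (0.102) also removed it. EIF3C has a near-identical copy. H4C12, a replication-dependent histone gene from a family of close copies, was at 0.804, 1.34 and 0.671 in DMSO and 2.01, 1.61 and 2.15 in H93.

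Genes furthest below SAHA included CLDN4, at 1.85, 1.92 and 2.34 in SAHA, TNFRSF6B, a decoy receptor, at 4.24, 4.83 and 4.42 in H93 and 7.28, 7.12 and 7.01 in SAHA, and GPR27, at 2.38, 2.19 and 2.85 and 4.30, 4.17 and 4.21. Class II genes did not pass this test for HLA-DRA (H93 minus SAHA 0.12, SE 0.0722) or HLA-DRB1 (0.04, SE 0.0457), which does not show that they were equal. In the class II list 1 gene was higher and 3 were lower in H93 than in SAHA. Of the 18 pump genes 14 were higher and 1 lower in H93, and ATP6V1A in SAHA was at 19.0, 18.4 and 18.8. Of 38 SNARE genes 13 were higher and 0 lower. Of the 36 splicing factors 0 were higher and 16 lower, of the 31 folate, serine and nucleotide genes 1 and 18, and of the 21 glycolysis genes 0 and 11. TYMS in SAHA was at 155, 153 and 156 and GPI at 45.1, 43.5 and 46.6. Base excision and mismatch repair genes were higher in 1 and lower in 9 of 29. Over the same 4 changes of scale the genes higher in H93 numbered 9 to 15 for the pump and 11 to 14 for SNARE genes. The genes lower in H93 numbered 13 to 19 for splicing factors, 18 to 21 for folate and nucleotide genes, 10 to 14 for glycolysis genes and 9 to 11 for repair genes. UHRF1 was at 38.9, 37.5 and 36.8 in SAHA, slightly above H93 (H93 minus SAHA -0.14, SE 0.0323, limma adjusted p = 0.00795).

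The differences varied with base composition of the transcript. Ordered by transcript GC content into 5 equal groups, the lowest group, from 30.2% to 41.1% GC, had 42.8% rises and 22.7% falls (median 0.063). The highest, from 58.8% to 74.5%, had 24.6% rises and 50.2% falls (median -0.131). Across 11503 genes with a transcript GC value, which share libraries and depth, the Pearson correlation of GC and difference was -0.216. Between single replicates of a group this correlation ran from -0.231 to 0.219, and both ends came from pairs of SAHA libraries. Pairs within DMSO or within H93 ran from -0.195 to -0.031. The value of -0.216 thus lay within the range of replicates only with the SAHA pairs included. The highest group minus the lowest came to -0.193 for the group means. It ran from -0.218 to -0.143 over the 9 pairs of an H93 and a DMSO library. Between replicates it ran from -0.071 to 0.066, both ends from SAHA pairs, and from -0.063 to -0.008 within DMSO or H93. Chromosome medians followed in part. Chromosome 22 had the lowest (-0.145, median transcript GC 57.4%) and chromosome X the highest (0.087, 46.4%). After centring within bins of transcript GC, chromosome 22 stood at -0.091, X at 0.072, and chromosome 19 changed sign from -0.043 to 0.020. Differences in GC handling between libraries and in RNA levels cannot be told apart here. With GC centring 171 genes had a 2-fold rise and 75 a 2-fold fall, against 169 and 94 without it. Of 58 lists with 10 or more kept genes, 4 moved by 3 or more genes in a direction, namely splicing factors, centromere, polycomb and actin cytoskeleton genes, the last to 25 rises and 10 falls. The medians of 7 lists, all within 0.08 of 0 before centring, changed sign.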

How the data were processed

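RNA of DU145 cells, 3 libraries each for DMSO, H93 and SAHA, was extracted with TRIzol and made into stranded TruSeq mRNA libraries, per the labels' protocols. The authors deposited FPKM per gene and library. The submitters' processing notes list HISAT2, Cufflinks, Trimmomatic 0.36 and GRCh38.p13 without saying what each did. Depth is unknown, so no counting interval was given.

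Values were tested as log2(FPKM + 1) with limma 3.58.1 in R 4.3.3: group means over 9 libraries, mean-variance trend, empirical Bayes (6 residual and 6.05 prior degrees of freedom), two-sided, with Benjamini-Hochberg adjustment over 11525 genes. This scale understates changes at low FPKM. An exact permutation test of 3 against 3 cannot go below p = 0.1 and was not used. The procedure was run on simulated data with few changed genes, all changed by larger folds than most genes that passed here. That run therefore does not cover the small changes. The lists come from textbook knowledge. Members, lists and the rule for named genes were chosen with earlier results of these data known. The rule took UHRF1, DNMT1 and CDKN1A, the 25 largest non-overlapping 2-fold rises and falls, up to 5 members per list by size of difference, the 15 largest gains and losses of mean FPKM, near-zero switches, the 10 genes furthest above and below SAHA, and leading members of the 8 highest and lowest pathway terms. Some genes and 1 list that the rule takes are not reported here. Same-numbered DMSO and H93 libraries did not deviate together (r from -0.02 to 0.036), so replicates were not paired. Positions came from GENCODE release 29 and promoters from RefSeq. Tables and plots used Python 3.11.15, pandas 2.3.3, numpy 2.4.6 and matplotlib 3.10.9.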

Additional observations from a re-analysis of the deposited data

How the results depend on the processing

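The number of 2-fold rises and falls, 169 and 94, depended on the pseudocount, which acts most on genes of low FPKM. It was 334 and 206 with a pseudocount of 0.1 and 49 and 25 with 5. With no filter on low values it was 170 and 94 among 16772 genes. Among the 8041 genes with a mean FPKM of at least 5 it was 97 and 59. Leaving out 1 library at a time gave 165 to 172 rises and 87 to 102 falls. At adjusted p alone it gave 3764 to 4033 rises and 3715 to 4061 falls, and against SAHA 1505 to 1995 genes higher and 1256 to 1558 lower. With the replicate number as a block, which the labels do not tie to a shared source, there were 169 and 95 2-fold calls, 3980 and 4006 at adjusted p, and 1899 and 1527 against SAHA. The split against SAHA, 2031 higher and 1598 lower, turned to 1714 and 1826 with median-ratio rescaling, 1693 and 1791 with quantile normalization and 1794 and 1843 with centring on transcript GC, which was chosen after the data were seen, and came to 2352 and 1395 with a fixed sum per library. Of 7032 values for 356 named genes under 20 alternatives 0 changed direction. Several alternatives could not change it, such as another filter or leaving out a SAHA library, because they leave the difference itself as it was. Most named genes were also chosen for large differences, and a change of direction was counted only where the main or the alternative fit gave a call. In all, 7 genes lost their call under at least 1 alternative: RPS2, ACTB, EIF3C, DLL3, MXD4, MNT and U2AF1. Only relative depth could be read from the FPKM values, so no counting error is attached to low values.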
